A study of Danio rerio with 4 samples.

Results

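This report follows the ribosomal protein genes of zebrafish embryos raised with or without added glucose. Members were taken by name: every probe set (the group of short oligonucleotides that measures a transcript on an Affymetrix array) annotated with a single gene whose symbol starts with rpl or rps and a number, or with rplp, leaving out the rps6k kinases. This gave 78 probe sets of 73 genes, among 8793 named genes and 15502 probe sets other than controls. Of the 73, 45 carry a large subunit name and 28 a small subunit name. For each gene the probe set with the highest mean over all arrays was used, and all 73 passed the filter on low values (an intensity of at least 32 on at least 2 arrays). A second, dimmer rpl21 probe set, at intensities of 25.8 to 41.9, did not pass.

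RNA came from whole embryos at 36 hours post fertilisation (hpf). One group, 2 arrays, had been kept in E3 embryo medium with 1% glucose between 12 and 36 hpf, and the other group, also 2 arrays, was labelled control. No strain, allele or transgene is given in the labels, and they do not say how many embryos made up a sample or whether the replicates were separate clutches, so a p-value measures only the spread between these samples. The comparison asks which transcripts differ between embryos with and without extra glucose, in a series about glucose metabolism and the onset of blood stem cell formation.

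Each ribosome joins a small subunit, which holds the messenger RNA and reads its codons, to a large subunit, which joins the amino acids and threads the new chain out through a tunnel. Every subunit is built in the nucleolus from ribosomal RNA and a set of ribosomal proteins, nearly all needed in equal numbers, and the transcripts of these proteins are among the most abundant of a growing cell. Reduced dosage of many of them causes Diamond-Blackfan anaemia in humans, a failure of red cell production, and zebrafish mutants in several ribosomal protein genes also have blood defects.

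The ribosomal protein genes differed little between glucose-treated and control embryos, and none passed the test. The median difference over the 73 genes was 0.00587 on the log2 scale, glucose minus control, against 0.006 over the 8164 named genes tested. Differences ranged from -0.18 for rps4x to 0.46 for rps19bp1. In size, 70 of the 73 (95.9%) were smaller than 0.2, a 1.15-fold change, against 54.7% of all named genes tested. Those named genes were dimmer (median log2 intensity 8.26, against 14.89 for the members), and dimmer probe sets vary more between replicates. Among the 76 other named genes with a mean log2 of at least 14 the share was 86.8%. Of the 73, 39 lay above 0 and 34 below. None passed the test (limma with a variance that follows intensity, Benjamini-Hochberg adjusted p under 0.10 over all 13628 tested probe sets), where 2.18% of all named genes passed. With robust estimation 0 members passed too, against 2.32% of named genes. Without the intensity trend limma passed 0 of all named genes (0%), so a gene not passing there says nothing particular to it. At an unadjusted p under 0.05 the count was 3, all higher in glucose, or 4.11% of the members against 12% of named genes. The smallest adjusted p of any member was 0.164, for rps19bp1. The groups did not overlap for 14 members in the higher direction (19.2%, against 21.8% of named genes) and for 6 in the lower direction (8.22%, against 20.6%).

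**Figure D1:**
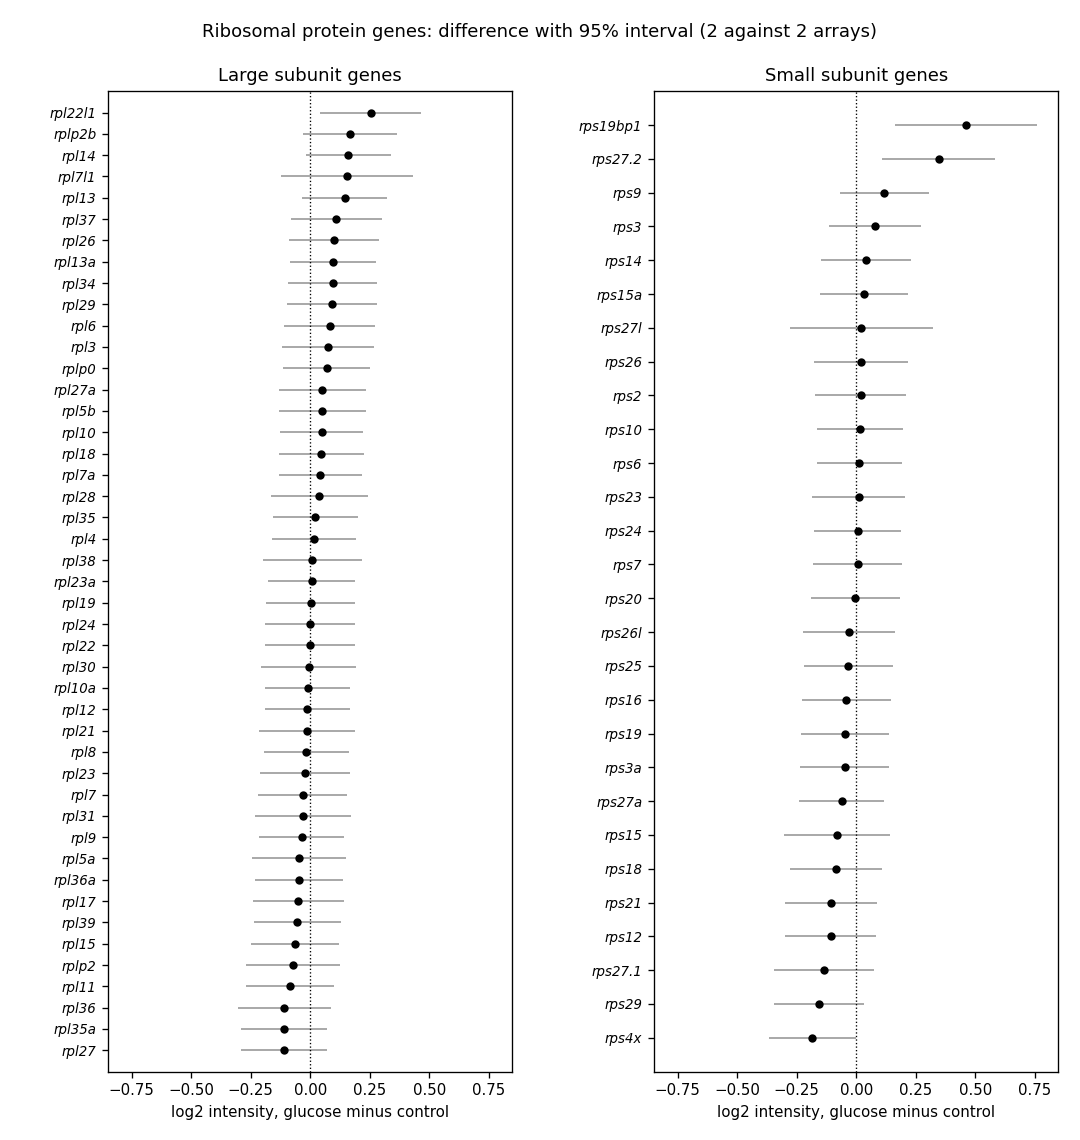
Log2 intensity in glucose minus control for the 45 large subunit genes (left) and 28 small subunit genes (right), each on its brightest probe set and sorted by value; points are differences of the means of 2 arrays and bars are 95% intervals from limma with an intensity trend. Most intervals hold 0; those of rpl22l1, rps27.2 and rps19bp1 lie above it.

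A missed threshold does not show equality, so the intervals set bounds, under the model fitted. The 95% interval of the difference lay wholly inside a 1.2-fold change in either direction for 44 of the 73 genes, inside a 1.3-fold change for 69 and inside a 1.5-fold change for 71, the exceptions to the last being rps19bp1 and rps27.2. The median interval reached 0.188 log2 units to either side. These intervals are per gene and are not widened for the number of genes. Their width also rests on the intensity trend, which was chosen with earlier results known. Without the trend the standard error of faua, a ribosome gene outside the rule and as bright as most members, was 0.142 instead of 0.0872. That fit also had fewer degrees of freedom, which widens an interval further, so the 2 standard errors understate the change in width. The intervals without the trend were not counted. As the deposited values were scaled to the same trimmed mean on every array, they show levels relative to the other transcripts of the embryo. In whole embryos, a change in the number of cells of a type and a change in RNA per cell cannot be told apart.

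These probe sets were very bright. A mean log2 intensity of at least 14 was reached by 144 named genes, of which 68 were members. All 68 differed by less than 0.2, with a median of -0.00116. The other 76 bright genes had a median of 0.00271, and 66 of them (86.8%) differed by less than 0.2. Past the threshold 5 of the 76 rose (6.58%, against 2.18% of named genes and 0 of the 68 members). They rose by up to 0.65 for gamt, the last enzyme of creatine synthesis. Of these 5, only bhmt was as bright as the median member (30345), with means of 30581 in controls and 38960 in glucose. The rest, gamt among them, had means below that level in both groups. The highest member reading, 53876.5 for rps2, lay below the 59857 to 75059 reached by the brightest probe set of each array. Whether the signal of very bright probe sets is compressed was not tested.

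**Figure D2:**
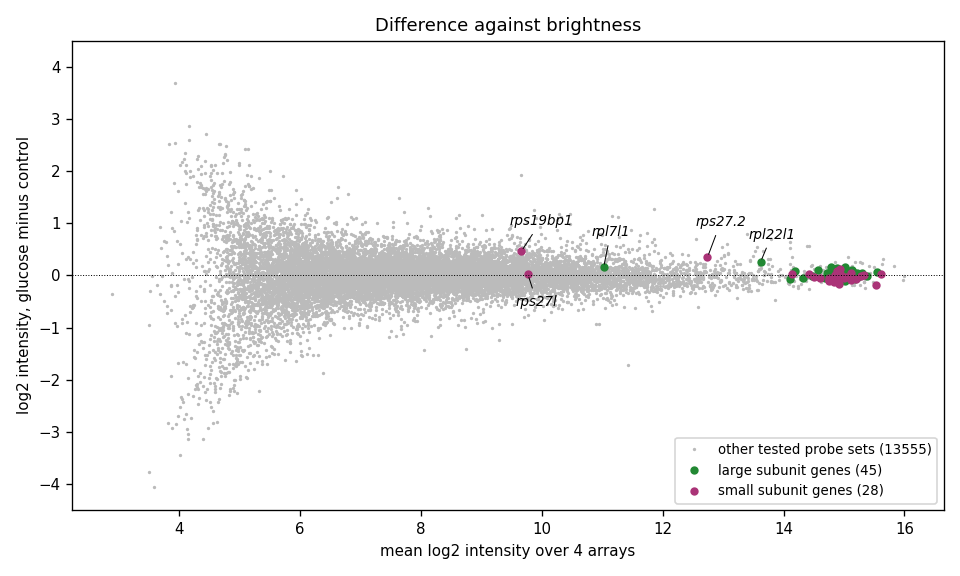
Difference between glucose and control (log2) against mean log2 intensity over the 4 arrays for the 13628 tested probe sets; grey points are other probe sets, green and purple points the brightest probe set of each large and small subunit gene. 68 members lie together at a mean of 14 or more and within 0.2 of 0, and the 5 dimmer ones are named.

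The large and small subunits had similar median differences. Over the 45 large subunit genes the median difference was 0.00634 (25 above 0, 20 below), and over the 28 small subunit genes it was 0.00125 (14 above, 14 below). The gap between these medians was 0.00509. A gap can also be taken on each array, between the subunit medians of deviations from gene means. That gap varied between replicate arrays by 0.02 (SD within groups, 2 arrays each). The SD is for single arrays and for medians of deviations, while 0.00509 is between medians of gene differences. They are therefore not like for like, and 0.00509 cannot be judged against 0.02. As deviations from gene means, the large subunit median was 0.0453 and -0.0605 in control replicates 1 and 2. The small subunit median was 0.0864 and -0.0581. In glucose replicates 1 and 2 they were 0.0311 and -0.0199 against 0.012 and -0.0287. So the large subunit median lay below the small on both controls and above it on both glucose arrays. Without control replicate 2 the large subunit median was -0.0326 and the small subunit median -0.101. Without control replicate 1 they were 0.0657 and 0.0495. Leaving out each array in turn gave gaps from 0.0136 to 0.0683, all larger than the 0.00509 of the full set.

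The lateral stalk of the large subunit recruits and activates the translation factors. Its base protein gene rplp0 read 49168 and 44024 in controls against 50667.5 and 46995 in glucose, a difference of 0.07 (standard error 0.0872). The groups overlapped, with glucose replicate 1 highest and control replicate 2 lowest. The stalk protein gene rplp2 read 17666 and 18682 in controls against 18319 and 16284 in glucose, a difference of -0.07. Its copy rplp2b read 34035 and 28660 in controls against 35529 and 34616 in glucose, 0.17 higher with a 95% interval from -0.03 to 0.36 (limma with trend, adjusted p = 0.529). Both glucose arrays lay above both controls for rplp2b, by a small margin over control replicate 1. The rplp2b difference was 0.29 without control replicate 1 and passed (limma with trend, adjusted p = 0.0083), and 0.04 without control replicate 2. The gene of rpl12, which binds at the foot of the stalk, differed by -0.01.

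Rpl5 and Rpl11 enter the large subunit together with the smallest ribosomal RNA, and in mammals the free particle binds and restrains Mdm2, which links failed ribosome assembly to p53. The rpl11 probe set read 30785 and 30489 in controls against 30407 and 27473 in glucose, a difference of -0.08 with a 95% interval from -0.27 to 0.10. The glucose arrays lay below the controls, glucose replicate 1 only just. The duplicate genes rpl5a and rpl5b differed by -0.05 and 0.05, and both overlapped between groups. No member of this particle passed the test.

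At the catalytic centre of the large subunit, rpl3, rpl8 and rpl10 differed by between -0.02 and 0.07, and a second rpl3 probe set by 0.11. The 7 measured genes of proteins around the exit of the tunnel (rpl17, rpl19, rpl23a, rpl26, rpl31, rpl35 and rpl39) differed by between -0.05 and 0.10, with 4 above 0 and 3 below. Among the other large subunit genes, the furthest below 0 were rpl27 (-0.11), rpl35a (-0.11) and rpl36 (-0.11). The rpl27 probe set read 32349 and 30863 in controls against 29831 and 28691 in glucose, with both glucose arrays below both controls. Above 0 lay rpl14, which read 26878 and 26274 in controls against 30220.4 and 29189 in glucose, 0.16 higher with a 95% interval from -0.02 to 0.34. rpl13 was similar, with 28996 and 28502 in controls against 31837 and 31756 in glucose (difference 0.15, interval from -0.03 to 0.32). For rpl14 and rpl13 the gap between groups was several times the spread within them, and neither passed (limma with trend, adjusted p = 0.505 and 0.551). rpl13a, often used as a reference gene in quantitative PCR, read 28778 and 27394 in controls against 29973 and 30059 in glucose, and differed by 0.10 (interval from -0.08 to 0.28).

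In the small subunit, the proteins that line the entry of the messenger RNA and the decoding site gave differences of 0.02 for rps2, 0.08 for rps3, 0.12 for rps9 and 0.01 for rps23. For rps9 the values were 31742 and 28256 in controls against 33073 and 31951 in glucose, with both glucose arrays above both controls by a small margin. For rps2 and rps23 control replicate 1 was the highest array, and without control replicate 2 their differences turned to -0.10 and -0.11. The 9 measured genes on the list for the head of the small subunit, which does not hold the head proteins rps3, rps27a (difference -0.06) and rack1, had a median of -0.05, with 8 below 0 and 1 above, and none passed. Control replicate 1 was the brightest array for each of these 9, and the split rested on it. Without that array most of the 9 lay above 0, rps19 at 0.03 among them. Only rps12 (-0.0065) and rps29 (-0.06) stayed below 0. Control replicate 1 was the brightest array for most small subunit genes.

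**Figure D3:**
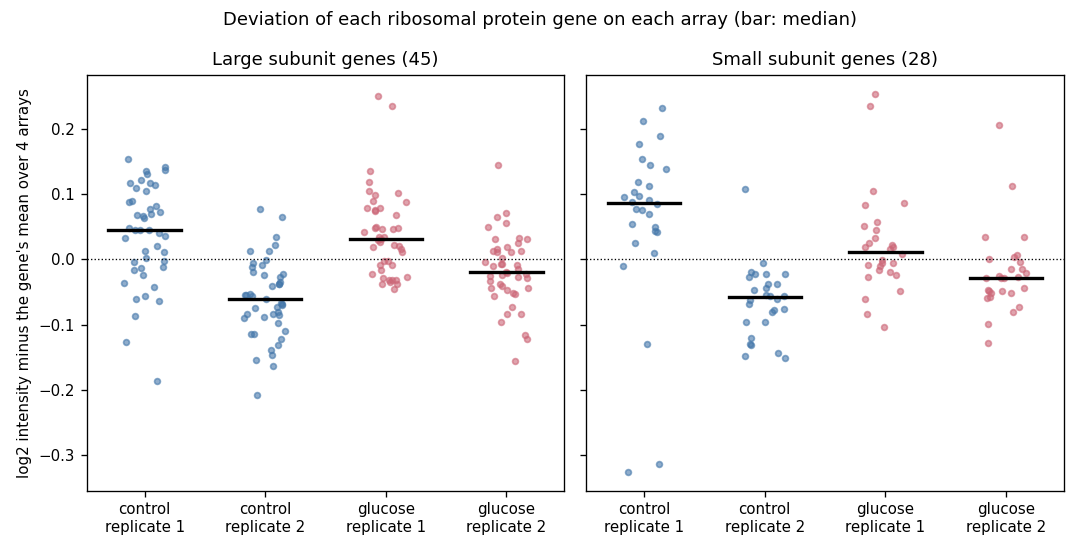
Log2 intensity of each ribosomal protein gene on each array minus the mean of that gene over the 4 arrays, for 45 large subunit genes (left) and 28 small subunit genes (right); points are genes, bars are medians. Control replicate 1 lies highest and control replicate 2 lowest in both panels, with the 2 glucose arrays between.

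The small subunit gene furthest below 0 was rps4x, whose protein sits in the body of the subunit. It read 53850.2 and 47092 in controls against 43984 and 44697 in glucose, a difference of -0.18 with a 95% interval from -0.37 to 0.00025 (limma with trend, adjusted p = 0.436). Both glucose arrays lay below both controls, and control replicate 1 stood furthest apart. After quantile normalization the difference was -0.24 and passed (adjusted p = 0.0669), and it was -0.28 without control replicate 2 (adjusted p = 0.00385). With control replicate 1 left out instead it was -0.09 (adjusted p = 0.718). rps29, in which zebrafish mutants have blood defects, read 35109 and 30647.5 in controls against 29323 and 29535 in glucose, a difference of -0.16 (interval from -0.35 to 0.03). Its glucose arrays were nearly equal and lay just under control replicate 2. Without control replicate 2 it was -0.25 and passed (limma with trend, adjusted p = 0.0233), while without control replicate 1 it was -0.06. rps12 and rps21 both differed by -0.11 and did not pass. rps14, the gene whose loss underlies the anaemia of the human 5q- syndrome, differed by 0.04 (95% interval from -0.15 to 0.23).

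The arrays of a group differed from each other across both subunits. Control replicate 1 was brighter than control replicate 2 for 61 of the 73 genes, with a median gap of 0.135 log2 units, and glucose replicate 1 brighter than glucose replicate 2 for 57, with a median gap of 0.0474. The median size of the difference was 0.0482 between the groups, 0.148 between the controls and 0.0562 between the glucose arrays. A difference between means of 2 arrays varies less than one between single arrays, so these sizes are not like for like. In 10 of the 73 genes the difference between groups was larger than both differences within them. That share was not computed over all named genes. Each array's median deviation from the gene means was 0.0673 and -0.0598 for control replicates 1 and 2, and 0.0222 and -0.0234 for glucose replicates 1 and 2. The 76 other bright genes had the same order, with 0.0452, -0.048, 0.0316 and -0.0131, whereas over all named genes tested the arrays lay between -0.000122 and 0.013. Its part in the results was not tested beyond leaving out each array. A fit without a control array takes its spread from the glucose pair alone, and assumes that the lone control varies in the same way; a fit without a glucose array takes it from the controls. Without control replicate 2, 3 members lay higher and 5 lower past the threshold, in a fit that passed 7.42% of named genes. The 3 were rpl22l1, rps19bp1 and rps27.2, and the 5 were rps12, rps15, rps27.1, rps29 and rps4x. Without control replicate 1, where 4.58% of named genes passed, rplp2b was the only member to pass. Without glucose replicate 1 or 2, where 1.52% and 1.22% of named genes passed, 0 members did.

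Human counterparts of 19 measured genes, with the duplicates of rpl5 and rps27 each counted, cause Diamond-Blackfan anaemia when a copy is lost. These 19 had a median difference of 0.00587, with 10 above 0 and 9 below, and none passed. rps19, the gene most often mutated in that disease, read 35203 and 31546 in controls against 32358 and 32140.0 in glucose. The difference was -0.05 (95% interval from -0.23 to 0.14), and both glucose arrays lay between the controls. rps24 differed by 0.01, rps7 by 0.01, rps10 by 0.02, rps26 by 0.02, rps15a by 0.03, rpl18 by 0.05, rpl26 by 0.10, rpl35 by 0.02, rpl31 by -0.03 and rpl15 by -0.06. The primitive red cell genes of the same embryos are given beside these values as a list already known to have moved in these data. Their rise is therefore no independent contrast. Of 8, 7 lay above 0 in glucose, with a median of 0.65 and a range from -0.18 to 1.1. Past the threshold 5 rose (62.5%, against 2.18% of named genes). The part of the red cell genes in the ribosomal values was not tested.

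The 3 largest differences belonged to a gene outside the ribosome and to 2 paralogues of ribosomal protein genes. All 3 genes were among the 5 members with a mean log2 intensity under 14. Those 5 all lay above 0, with a median difference of 0.25, against -0.00116 for the 68 brighter members. The largest difference was that of rps19bp1, which matches by symbol but encodes a binding partner of Rps19, not a protein of the ribosome. It read 651 and 729 in controls against 964 and 933 in glucose, a 1.38-fold difference with a 95% interval from 1.12 to 1.69 (limma with trend, adjusted p = 0.164). Both glucose arrays lay well above both controls. Its other probe set read 443 and 374 in controls against 370 and 411 in glucose, a difference of -0.06, so the 2 probe sets of rps19bp1 disagree.

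Next came rps27.2, a duplicate of the small subunit gene rps27.1. It read 5460 and 6736 in controls against 8049 and 7394 in glucose, 1.27-fold higher with a 95% interval from 1.08 to 1.5 (limma with trend, adjusted p = 0.198). On the log2 scale this is 0.35, which became 0.20 when control replicate 1 was left out and 0.50 when control replicate 2 was. Both glucose arrays lay above both controls, and control replicate 1 was the lowest, opposite to most members. The brightest rps27.1 probe set read 33896 and 27723 in controls against 29143 and 26787 in glucose, a difference of -0.13 with overlapping groups. The other 2 rps27.1 probe sets differed by -0.24 and -0.15, with both glucose arrays below both controls on each. The ratio of rps27.2 to rps27.1 was 0.48 log2 units higher in glucose, and both glucose arrays lay above both controls. Control replicate 1 stood furthest apart, at -0.54 from the mean log2 ratio, against 0.06 for control replicate 2 and 0.24 for both glucose arrays. Without control replicate 1 the rps27.1 difference was 0.01. The more distant relative rps27l, whose human counterpart is induced by p53, differed by 0.02. Near-identical copies can bind each other's probes, so the split between rps27.1 and rps27.2 is uncertain.

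The third was rpl22l1, the paralogue of rpl22. In zebrafish the products of this pair are known to act against each other in the emergence of blood stem cells. rpl22l1 read 11042 and 11992 in controls against 14799 and 12734 in glucose, 1.19-fold higher with a 95% interval from 1.03 to 1.38 (limma with trend, adjusted p = 0.325). Leaving out each array moved the log2 difference of 0.25 to between 0.15 (without glucose replicate 1) and 0.36 (without glucose replicate 2). Glucose replicate 1 was highest, and glucose replicate 2 lay closer to the higher control than to it. rpl22 read 23697 and 21577 in controls against 22775 and 22374 in glucose, and did not differ beyond the spread of the arrays (difference -0.00249, interval from -0.19 to 0.19). The log2 ratio of rpl22l1 to rpl22 was 0.26 higher in glucose, with the groups apart by a small margin. From the mean log2 ratio, control replicate 2 lay at -0.00139 and glucose replicate 2 at 0.033. Other pairs had ratios with the groups apart too, rplp2b to rplp2 (difference 0.24) and rps26l to rps26 (-0.05). For rpl5b to rpl5a and rps27l to rps27.1 they overlapped. rpl7l1, a relative of rpl7, read 1902 and 2039 in controls against 2472 and 1944 in glucose, and differed by 0.15 on account of glucose replicate 1; without that array the difference was -0.02. The pair rps26 and rps26l differed by 0.02 and -0.03. Without rps19bp1 and rpl7l1 the median of the remaining 71 genes was 0.00162.

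**Figure D4:**
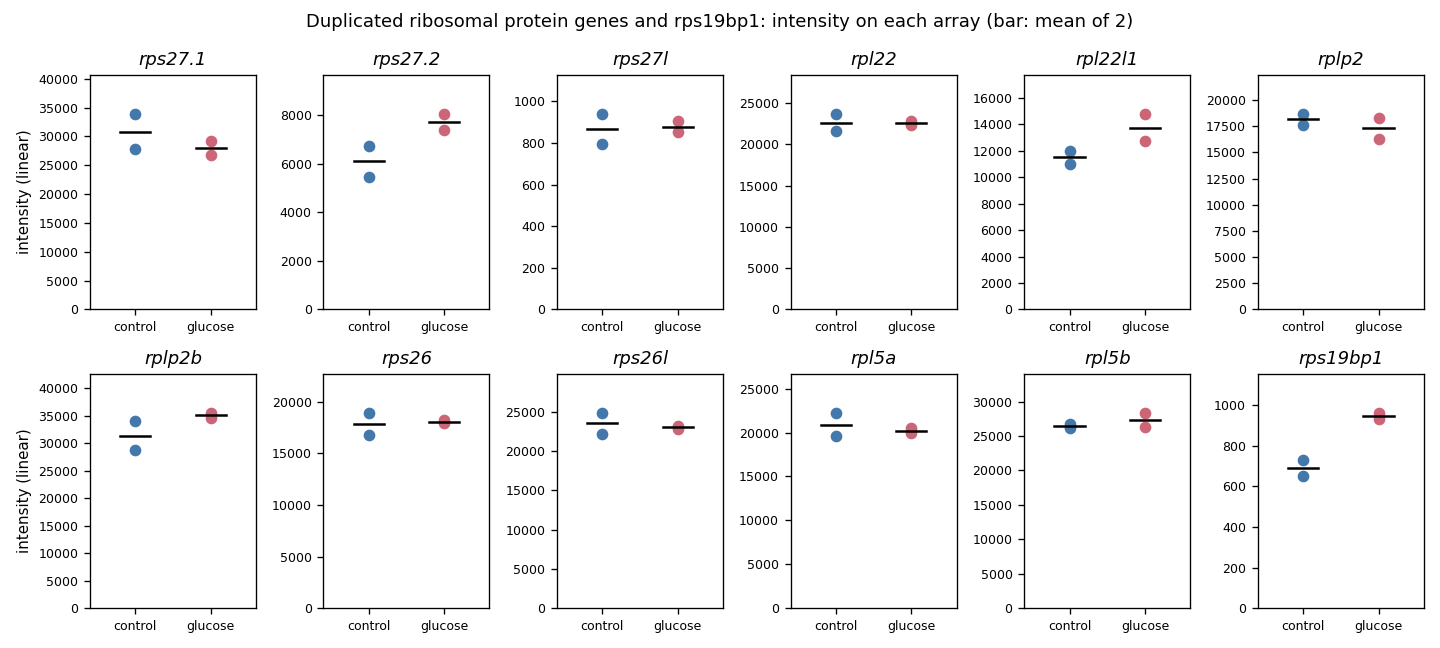
Intensity on a linear axis from 0 in each control array (blue) and glucose array (red) for duplicated ribosomal protein genes and for rps19bp1; bars are means of 2 arrays. Both glucose arrays lie above both controls for rps27.2, rpl22l1, rplp2b and rps19bp1, while rpl22, rps26 and rpl5a overlap.

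The 4 measured genes of cytosolic ribosome proteins whose names fall outside the rule all differed by less than 0.2. rpsa, which encodes a protein of the small subunit, differed by 0.06, and rack1, a signalling scaffold on the head of the small subunit, by -0.04. The genes faua and faub, which encode a small subunit protein fused to a ubiquitin-like part, differed by -0.07 and 0.18. Both glucose arrays lay below both controls for faua and above both for faub. faub was far dimmer than the others, at 540 and 546 in controls against 631 and 599 in glucose. None of the 4 passed.

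Ribosomes are built by a further set of genes, whose probe sets were dimmer (median log2 intensity 8.69, against 14.89 for the members), and dimmer probe sets vary more between replicates. Of 79 tested genes of ribosome biogenesis and RNA polymerase I, which transcribes ribosomal RNA, 57 lay above 0 and 22 below, with a median of 0.13 against 0.006 over all named genes tested. When each array was left out in turn the median stayed between 0.11 and 0.13. Both glucose arrays lay above both controls for 33 of the 79 (41.8%, against 21.8% of named genes). They lay below both controls for 8 (10.1%, against 20.6%). In this list 1 gene rose and 1 fell, or 2.53%, close to the 2.18% of all named genes. The one that rose was nop58, a core protein of the particles that guide methylation of ribosomal RNA. It read 1645 and 1798 in controls against 2464 and 2451 in glucose, a difference of 0.51 (standard error 0.119, adjusted p = 0.0397 by limma with trend), and both glucose arrays lay far above both controls. A second nop58 probe set of similar brightness read 1869 and 1662 in controls against 1888 and 1675 in glucose, a difference of 0.01, so the 2 probe sets of nop58 disagree. The second was the brighter in controls, with a mean log2 of 10.78 against 10.75. The called probe set had the higher mean over all arrays only through its glucose values (11.26 against 10.80). Its use for nop58 thus depended on the rise itself. ubtf, which encodes a factor that opens ribosomal DNA to RNA polymerase I, fell from 1935 and 1934 in controls to 1441 and 1250 in glucose, a difference of -0.53 (standard error 0.127, adjusted p = 0.051). Without the intensity trend, where 0 of all named genes passed, the adjusted p was 0.541 for nop58 and 0.547 for ubtf (limma). The nop58 call was lost when glucose replicate 1 or 2 was left out (adjusted p = 0.23 and 0.263), and the ubtf call when glucose replicate 2 was (adjusted p = 0.46, difference -0.42). Other parts of the same machinery, chosen after their values were seen, were fbl (0.19), the methyltransferase beside nop58, and dkc1 (0.45) and nhp2 (0.23), of the particles that guide pseudouridylation. None of the 3 passed. The 6 measured genes of RNA polymerase I subunits had 4 above 0 and 2 below, from -0.20 for polr1c to 0.44 for polr1b, and none passed.

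Mitochondria hold ribosomes of their own, built from separate nuclear genes. Of the 59 measured mitochondrial ribosomal protein genes, 42 lay below 0 and 17 above (28.8%, against 51% of named genes tested). Their median was -0.11, against 0.006 over all named genes tested. The median was similar for the 38 genes of the mitochondrial large subunit (-0.11) and the 21 of the small subunit (-0.12). Leaving out control replicate 1 gave -0.0707, and leaving out control replicate 2 gave -0.159. The groups did not overlap for 27 of the 59 in the lower direction (45.8%, against 20.6% of named genes). In the higher direction they did not overlap for 4 (6.78%, against 21.8%). Of the 59, 1 fell, or 1.69%, close to the 2.18% of all named genes called. It was mrpl32, of the large subunit, which went from 467 and 468 in controls to 304 and 277 in glucose. The difference was -0.69 (standard error 0.168, adjusted p = 0.0559 by limma with trend). Its glucose arrays lay far below its controls, which were almost equal. The mrpl32 call was lost when glucose replicate 1 or 2 was left out (limma with trend, adjusted p = 0.109 and 0.328). Without the intensity trend, where 0 of all named genes passed, its adjusted p was 0.498 (limma).

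**Figure D5:**
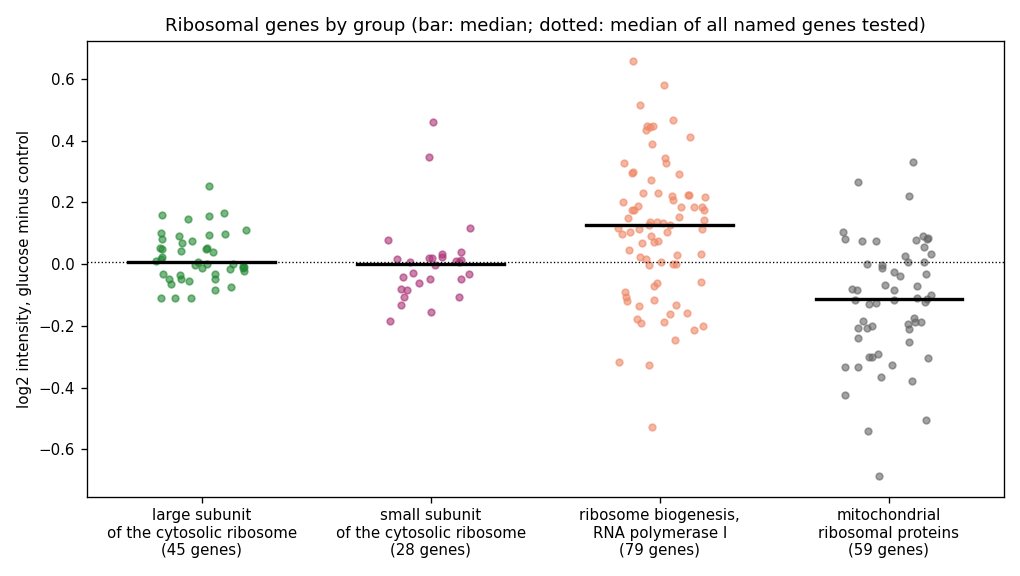
Log2 intensity in glucose minus control for each gene of 4 groups (points), with the median of each group (bars) and of all named genes tested (dotted line). The cytosolic ribosomal proteins lie close to 0, most biogenesis genes lie above it (median 0.13) and most mitochondrial ribosomal protein genes below it (median -0.11).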

How the data were processed

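Total RNA of whole embryos was extracted with Trizol and labelled with biotin for Affymetrix arrays, per the labels' protocols. The deposited table gives the authors' linear intensity for each of 15617 probe sets, 1 column per array. Per the submitters' processing notes the tool was GCRMA, with no version given. However, the 2% trimmed mean is 500.2 on each array and low values scatter widely, so which method made them is unknown here, as is whether background was subtracted. Array depth has no count; the 4 arrays limit the precision.

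The 115 control probe sets were left out. Gene names came from the platform annotation and were checked by gene identifier in the RefSeq table of GRCz12tu, which matched all 73 members and changed no symbol. Symbols were not taken from the 135 probe sets with several genes. After log2, probe sets reaching 5 on at least 2 arrays were tested by limma 3.58.1 in R 4.3.3 (lmFit, eBayes with an intensity trend, no covariates, 2 residual degrees of freedom), adjusting p by Benjamini-Hochberg across the 13628 probe sets tested and calling those under 0.10. The code was tested on simulated arrays. Python 3.11.15, pandas 2.3.3 and matplotlib 3.10.9 did the rest. Lists are described by counts and medians, with no test. The members, lists, tests and naming rule were chosen with earlier results of these data known, the intensity trend among them.

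Named members are those past the threshold, the 5 highest and 5 lowest differences in each subunit, the stalk, decoding, rpl5 and rpl11 and Diamond-Blackfan genes, rps14, rpl13a, duplicated genes and genes whose probe sets disagree; of other lists, the genes past the threshold. Other genes were named after their values were seen, except gene groups listed whole. Alternatives were leaving out each array, the replicate number as a block, no trend, robust estimation, quantile normalization, median centring, no filter, a mean log2 of at least 6, averaging the probe sets of each gene, and other thresholds. Leaving out rps19bp1 and rpl7l1 was added after seeing the data.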

Additional observations from a re-analysis of the deposited data

How the results depend on the processing

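The median differences of the ribosomal protein genes followed single control arrays. Leaving out each array in turn gave medians from -0.0667 to 0.0609 over all members, from -0.0326 to 0.0657 for the large subunit and from -0.101 to 0.0495 for the small subunit, the lower ends without control replicate 2 and the upper ends without control replicate 1. The gap between the subunit medians lay between 0.0136 and 0.0683, above the 0.00509 of the full set. The same fits gave 0 to 3 members higher and 0 to 5 lower past the threshold, 0 to 5 biogenesis genes higher and 0 to 1 lower, and 0 to 3 mitochondrial ribosomal protein genes lower, while the share of all named genes called ran from 1.22% to 7.42%. The biogenesis median stayed between 0.113 and 0.13, and was 0.103 after quantile normalization, while the mitochondrial median ranged from -0.159 to -0.0707. Counts moved as follows. For members, quantile normalization gave 1 lower, and an unadjusted p under 0.05 gave 3 higher. For biogenesis genes, 0 were higher without the intensity trend or with the probe sets of a gene averaged, 0 were lower without the trend or at an adjusted p under 0.05, and 9 were higher at an unadjusted p under 0.05. For mitochondrial ribosomal protein genes, 0 were lower without the trend, with no filter or at an adjusted p under 0.05, and an unadjusted p under 0.05 gave 8 lower and 1 higher. In either direction, that unadjusted threshold took 4.11% of members and 12.7% of biogenesis genes. It took 15.3% of mitochondrial ribosomal protein genes and 12% of all named genes. Signs that turned by more than a standard error, or at a call, did so in genes that had not passed: leaving out each array gave -0.135 to 0.0648 for rack1, -0.046 to 0.172 for rpsa, -0.154 to 0.0243 for rpl15, -0.141 to 0.116 for rpl21, -0.0267 to 0.176 for rpl3, -0.158 to 0.0943 for rpl31, -0.019 to 0.328 for rpl7l1, -0.103 to 0.141 for rps2, -0.114 to 0.134 for rps23 and -0.279 to 0.0112 for rps27.1, and quantile normalization gave -0.11 for rps2. The causes were not tested. The replicate numbers are shared between the groups, but the labels give no pairing and the deviations of same-numbered arrays correlated with r = -0.0228 across all tested probe sets and r = -0.377 across the 77 of members, which describes these arrays only; with the replicate block 0 members passed, the smallest adjusted p being 0.154, for rps27.2. Precision is limited by 2 arrays a group.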
